A study of Mus musculus with 6 samples.

Results

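FGF10 was added to a Noggin-containing medium in mouse dental epithelial organoids whose Notch signalling had not been inhibited, and the 2 libraries that carry this comparison, +NF with FGF10 and +N without it, are described here across all genes. They are 2 of the 4 libraries with values in the deposited table, which belongs to a series of 6 labelled libraries. The values are FPKM, fragments scaled to transcript length and to the mapped fragments of the library, and were summed by gene symbol. Genes reaching an FPKM of 1 in +N, in +NF or in both were compared, which held for 13090 of 47360 symbols. The comparison is the log2 ratio of FPKM + 1, with +NF over +N, and a gene is called higher or lower when it was at least 2-fold apart on that scale.

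The study grew adult dental epithelial stem cells into organoids and varied the factors in the medium. The cells came from the epithelium of the apical incisor buds of wild-type C57BL/6J female mice aged 9 weeks, were embedded in Matrigel, and were grown for 14 days. Both media held N-acetylcysteine, the kinase inhibitor Y27632, 50% Wnt3a-conditioned medium, 5% R-spondin1-conditioned medium, 100 µg/ml EGF and 200 µg/ml Noggin, an antagonist of BMP ligands. The +NF medium also held 100 µg/ml FGF10. The +ND and +NFD media, used here only beside the main pair, add dibenzazepine, a γ-secretase inhibitor that blocks cleavage of Notch receptors, to +N and +NF, and the sources disagree on the unit of its dose. Conditioned media and Matrigel are undefined mixtures, the whole organoid was sampled, and how many mice or cultures went into a library is not given in the sources used here. Each medium has 1 library, so there is no replicate check, no p-value is given, and every difference below is between these libraries.

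FGF10 is made by mesenchyme in the embryo and binds the epithelial IIIb isoform of FGFR2. Receptor activation runs through RAS and ERK to the ETS factors Etv4 and Etv5, and ERK in turn induces its own inhibitors, the Sprouty proteins and the phosphatase Dusp6. In the continuously growing mouse incisor, mesenchymal FGF10 maintains the epithelial stem cells of the cervical loop. Stratified epithelia move cells from a basal layer that divides on a basement membrane into spinous layers and then into a cornified layer, and Notch signalling promotes the step out of the basal layer.

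In +NF 361 of the 13090 genes (2.76%) passed the 2-fold limit upward and 319 (2.44%) downward. All genes together had a median log2 ratio of 0.12 rather than 0, and 8595 genes (65.7%) lay above 0. After subtraction of that median the split turned to 248 higher and 412 lower, so the balance of the 2 directions depends on the scaling. Each count of list members or neighbours called higher or lower below stands against these shares of 2.76% and 2.44%. Differences of at least 4-fold were seen in 60 higher and 86 lower genes. The shares also varied with level. Among the 4881 genes with a mean FPKM from 5 to 20, 2.79% were higher and 1.76% lower, whereas among the 806 genes from 100 to 1000 FPKM 2.11% were higher and 4.47% lower. Short transcripts, which FPKM measures poorly, were frequent among the strongest ratios: of 21 genes at least 8-fold higher, 15 were noncoding genes shorter than 300 nt and 6 were protein-coding, while of 33 genes at least 8-fold lower, 12 were such short genes and 20 were protein-coding.

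**Figure D1:**
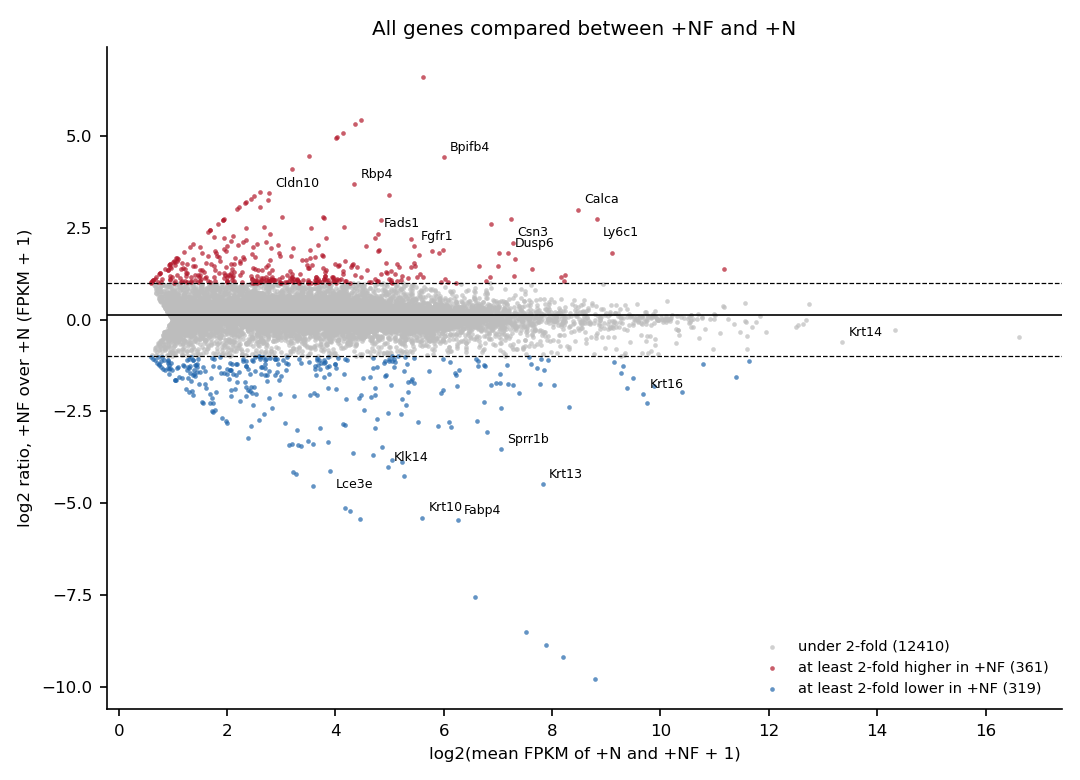
Each point is 1 of the 13090 genes, with the mean FPKM of both libraries (log2 scale) on the horizontal axis and the log2 ratio of +NF over +N on the vertical axis. The solid line is the median of 0.12, the dashed lines mark 2-fold, and the 361 genes above and 319 genes below the dashed lines are coloured.

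The depth of the libraries was close. Steps of FPKM in 8409 single-transcript genes gave a depth in +NF of 1.04 times that in +N, and 1 fragment of a 1000-nt transcript was worth 0.0351 FPKM in +NF and 0.0366 in +N. FPKM was above 0 in 20245 genes in +NF and in 19834 in +N. The noncoding transcript BC037156 took 15.6% of the summed FPKM in +N and 12.04% in +NF. Markers of the labelled epithelium were abundant in both libraries. Krt5 and Krt14, the keratin pair of basal cells, were among the 10 genes with the highest mean, Krt5 at 6582 FPKM in +N and 6535 in +NF, Krt14 at 12650 and 8295. All 15 epithelial markers were compared, with a median log2 ratio of -0.06. Odam, an ameloblast-associated secreted protein, was at 6221 and 5441 FPKM. The median over 12 housekeeping genes was 0.02. In bulk libraries such as these, fewer cells of a type and less RNA per cell cannot be told apart.

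Among the FGF receptors the largest difference was in Fgfr1, which stood at 16.4 FPKM in +N and 69.3 in +NF (log2 ratio 2.01). That is a 4.21-fold ratio of FPKM, with a counting interval (95%, exact, for counting error only) from 4.03 to 4.41. Fgfr1 is annotated on chromosome 8 of GRCm38 from 25513654 to 25575714. Fgfr2, whose IIIb isoform binds FGF10, was at 28.2 FPKM in +N and 24.2 in +NF, and Fgfr3 at 12.9 and 9.77, so neither neared 2-fold. FPKM here does not separate the IIIb from the IIIc isoform. The ligand Fgf7, the other main FGFR2-IIIb ligand, was at 1.34 FPKM in +N and 0.162 in +NF. Fgf10 itself was under 0.1 FPKM in both libraries, at 0.0643 in +N and 0.0179 in +NF. Of 22 listed FGF ligands and receptors 11 were compared, and besides Fgfr1 and Fgf7 none passed 2-fold.

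The negative-feedback and target genes of ERK stood higher as a group. Of 23 compared, 6 were at least 2-fold higher, none lower, and 18 lay above 0, with a median of 0.58 against 0.12 over all genes. Dusp6, which dephosphorylates ERK, was at 64.1 FPKM in +N and 226 in +NF, a 3.52-fold ratio (3.42 to 3.64). The 3 compared Sprouty genes, whose products restrain receptor tyrosine kinase signalling, had higher values in +NF: Spry1 was at 4.77 and 17.9 FPKM, Spry2 at 9.51 and 18.4, and Spry4 at 0.604 and 2.20. Only Spry1 of these passed 2-fold on the FPKM + 1 scale, and Spry4 missed it narrowly. The ETS factors Etv4 and Etv5 were at 22.8 and 4.38 FPKM in +N and at 64.1 and 15.5 in +NF, so both were called higher, while the related Etv1 was at 7.94 and 10.4. Spred3, another inhibitor of the pathway, was at 2.48 and 6.5 FPKM, a call that is lost when ratios are centred on the median of all genes (0.99). Not every gene linked to ERK moved this way. Dusp4 was at 54.5 and 48.1 FPKM, Dusp5 at 16.5 and 17.2, Phlda1 at 52.5 and 42.1 and Ier3 at 223 and 181.

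Hmga2, a chromatin protein of growing embryonic tissues, is among the 6 members of the ERK list called higher. It was at 5.11 FPKM in +N and 19.8 in +NF (log2 ratio 1.77). With dibenzazepine the level was 43.9 FPKM without FGF10 and 17.9 with it, so the low library was +N and the other 3 media lay above it.

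The immediate early genes, transcribed within minutes of growth factor stimulation, did not follow the ERK feedback genes. Of 19 compared, 16 lay below 0 and the median was -0.38. Jun, an AP-1 subunit, was the only one past 2-fold, at 46.0 FPKM in +N and 20.2 in +NF. Junb was at 352 and 212 FPKM and Egr1 at 39.0 and 22.9. The EGF family had 1 of 11 compared genes past 2-fold, the ligand Areg at 21.4 and 9.78 FPKM. Egfr, the receptor for the EGF in both media, was at 17.6 and 22.3 FPKM.

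Notch genes were mixed. Of 12 compared, 2 were at least 2-fold higher: Lfng, a glycosyltransferase that modifies Notch receptors, at 9.33 FPKM in +N and 20.9 in +NF, and the ligand Dll1 at 8.10 and 18.2. Both calls are lost when ratios are centred on the median (0.97 for Lfng and 0.96 for Dll1). The targets went the other way without reaching 2-fold. Hes1 was at 157 FPKM in +N and 109 in +NF, and Nrarp at 18.2 and 9.12. The ligand Jag1 was at 66.4 and 44.4 FPKM while Jag2 was at 40.3 and 71.5. Notch1 was at 11.3 and 15.3 FPKM. The median of the list was -0.04.

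**Figure D2:**
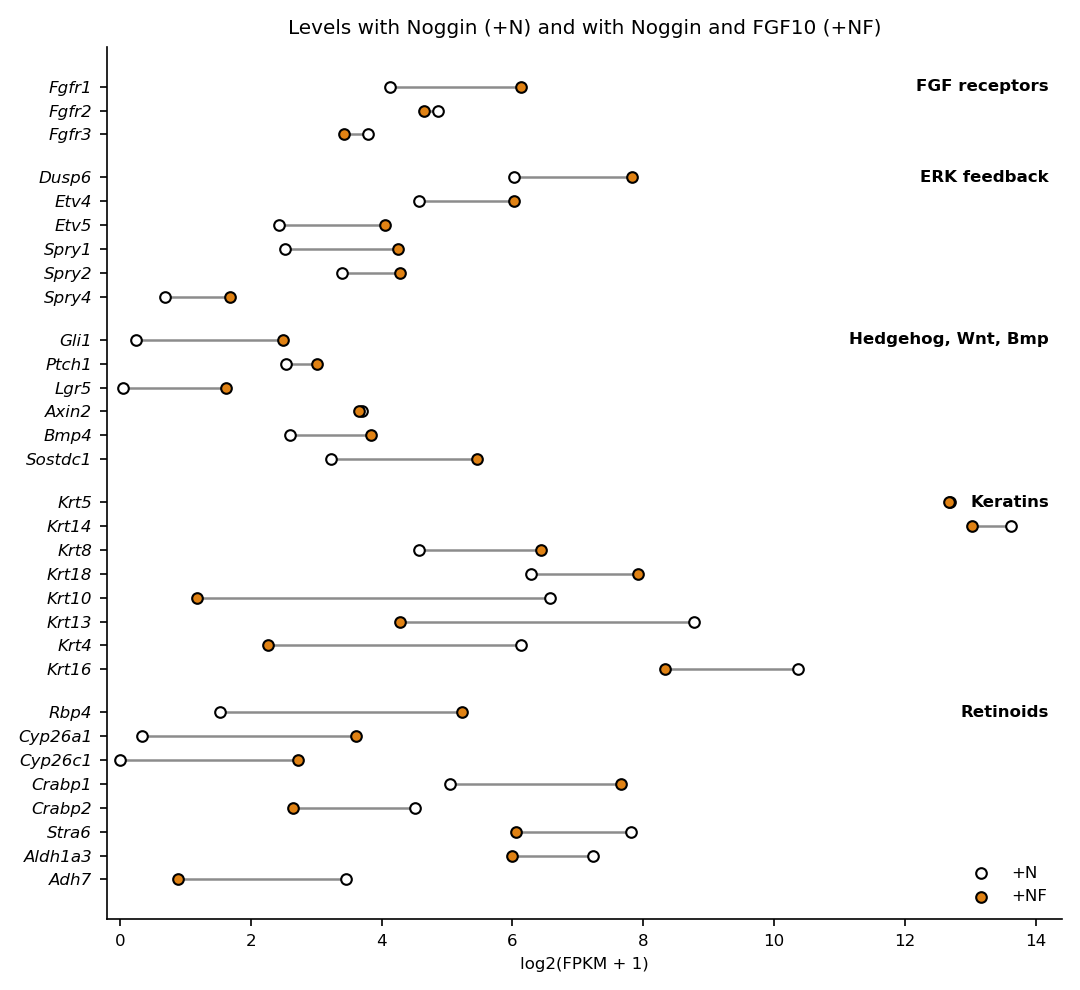
Levels of selected genes as log2(FPKM + 1), open circles for +N and filled circles for +NF, with 1 library each. Fgfr1, Dusp6, Gli1, Krt8 and the retinoid genes Rbp4, Cyp26a1, Cyp26c1 and Crabp1 lie to the right in +NF, Krt10, Krt13, Krt4 and Krt16 to the left, and Krt5 and Axin2 overlap.

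Cell cycle genes lay together on the higher side. All 76 compared genes of mitosis and G2/M lay above 0, 75 of them lay above the median of all genes, and 24 passed 2-fold, with a list median of 0.93. All 57 compared genes of DNA replication and G1/S were also above the median of all genes, 6 passed 2-fold, and their median was 0.75. Mki67, the proliferation marker, was at 8.94 FPKM in +N and 24.1 in +NF. Cdk1, the kinase that drives entry into mitosis, was at 70.1 and 146 FPKM, and Top2a, which untangles replicated chromosomes, was at 29.3 and 66.7. Rrm2, a subunit of the ribonucleotide reductase that supplies nucleotides for DNA synthesis, was at 27.0 and 62.0 FPKM. Because most of these ratios sat close to 2-fold, the counts depended on the scaling: on the centred scale 9 genes of mitosis and 1 of DNA replication were called, and with a pseudocount of 0.1 there were 40 and 11.

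The values in all 4 libraries set +N apart in this list. Summed over the mitosis list, FPKM was 1234 in +N, 2239 in +NF, 2033 in +ND and 2047 in +NFD. For Cdk1 the 4 values were 70.1, 146, 125 and 134 FPKM in the same order. The +N library was thus the low one, and the 3 others lay close together. In the pair with dibenzazepine the median over the mitosis list was 0.01 and no member passed 2-fold in either direction. Of the regulators, the D cyclin Ccnd2 was called higher, at 109 FPKM in +N and 283 in +NF, Ccnd1 was at 188 and 233, and the inhibitor Cdkn1a was at 324 and 241. Ribosome biogenesis genes were uniformly but slightly above 0, 40 of 40 with a median of 0.34 and none at 2-fold. Their summed FPKM was 1595 in +N, 2038 in +NF, 3067 in +ND and 2392 in +NFD.

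The upstream region of Cdk1 is shown because its letters carry the pattern that recurs in this list, TTTGAA, the core of the cell cycle homology region found at late cell cycle genes. The 250 bases before the start annotated by RefSeq on GRCm38.p6, chr10:69352913-69353162 on the minus strand, hold it 71 and 15 bases before the start, in capitals:
Cdk1: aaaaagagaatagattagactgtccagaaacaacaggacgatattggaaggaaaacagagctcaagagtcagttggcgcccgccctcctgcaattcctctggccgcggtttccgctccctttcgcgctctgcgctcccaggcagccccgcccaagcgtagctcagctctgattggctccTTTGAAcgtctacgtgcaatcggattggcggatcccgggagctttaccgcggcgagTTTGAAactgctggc
In windows of 300 bases (250 before and 50 after the start, both strands searched), TTTGAA was found in 47 of 70 promoters of 63 genes of the mitosis list (67.1%), in 11 of 59 promoters of 49 genes of the DNA replication list (18.6%) in 17.9% of all 32851 promoters and in 12.2% of those of compared genes. Among promoters of the genes called higher the share was 15.3% and among those called lower 18.1%. A match is a description of the letters and not evidence of binding.

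Several metabolic and stress lists held no called gene. No gene among 26 of glycolysis, 29 of sterol and fatty acid synthesis, 22 of the unfolded protein response or 18 p53 targets passed 2-fold in either direction, with medians of -0.06, -0.04, 0.05 and 0.26. Slc2a1, the main glucose transporter, was at 197 FPKM in +N and 113 in +NF, and Ldha was at 3532 and 3377.

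Genes of the basal layer lay mostly within 2-fold. Trp63, the transcription factor that defines stratified epithelium, was at 88.5 FPKM in +N and 100.4 in +NF. Of 18 basal and hemidesmosome genes, 2 integrin subunits were called higher, Itga3 at 71.1 and 159 FPKM and Itgb4 at 195 and 402, the latter call lost on the centred scale (0.92). Krt15, a keratin of basal cells, was called lower at 8.62 and 2.39 FPKM. The keratins of simple epithelia split. Krt8 and its partner Krt18 were at 22.8 and 76.7 FPKM in +N and at 86.0 and 241 in +NF, whereas Krt20 was at 4.36 and 0.1002. Of the stress keratins, induced in wounds and in culture, Krt16 was at 1321 FPKM in +N and 321 in +NF and Krt6b at 2462 and 1073. Krt17 was at 954 and 862 FPKM, so it did not share the ratio of Krt16.

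Suprabasal keratins were among the genes with the lowest ratios. Krt10, the acidic keratin that replaces Krt14 when epidermal cells leave the basal layer, was at 94.1 FPKM in +N and 1.25 in +NF, a 75.1-fold ratio (59.6 to 95.3). It lies on chromosome 11 from 99385254 to 99389364. The mucosal keratins Krt13 and Krt4, which pair in the spinous layer of oral epithelium, were at 435 and 69.0 FPKM in +N and at 18.5 and 3.79 in +NF. Across the spinous list 12 of 22 compared genes were at least 2-fold lower, none higher, and 21 lay below 0, with a median of -1.07. Calml3, a calmodulin-like protein of suprabasal cells, was at 199 and 22.7 FPKM, and Krtdap, a keratinocyte differentiation-associated protein, at 265 and 66.0. The desmosomal cadherins of upper layers followed, Dsg1a at 4.55 and 0.424 FPKM and Dsc1 at 2.39 and 0.119. The adhesive genes of all layers did not: none of 18 desmosome and adherens junction genes reached 2-fold, with Dsg3 at 170 and 151 FPKM and Dsp at 178 and 157. Ivl, the classic early marker involucrin, was at 4.33 and 2.48 FPKM and was not called.

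**Figure D3:**
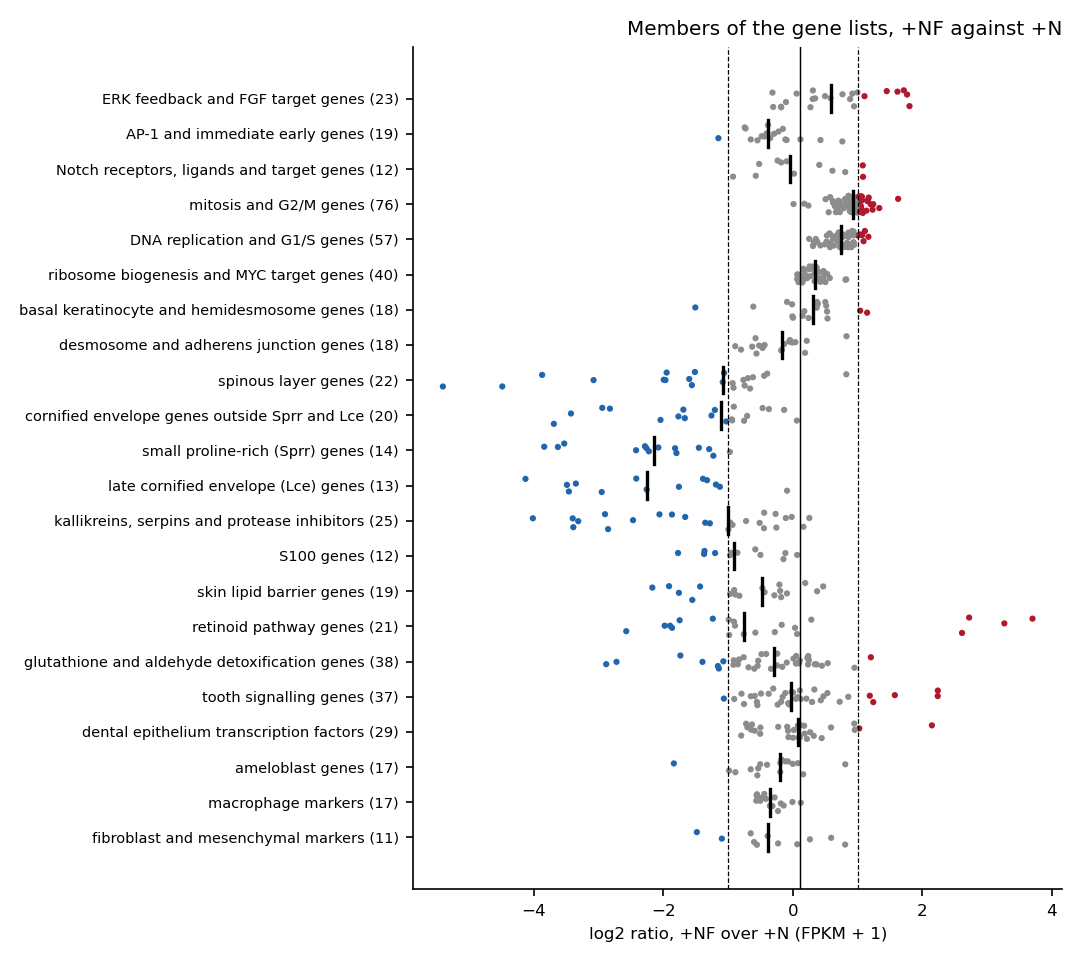
Each point is a list member at its log2 ratio of +NF over +N, each heavy bar the list median, and the number in brackets the members compared. The solid line is the median of all genes, the dashed lines mark 2-fold, and coloured points lie beyond them; the Sprr and Lce lists lie furthest to the left and nearly all cell cycle members lie right of the solid line.

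Genes of the cornified envelope, the cross-linked protein shell of dead surface cells, were lower in 11 of 20 compared and higher in none (median -1.11). Csta1, a stefin-type protease inhibitor, was at 47.2 FPKM in +N and 2.74 in +NF. Rptn and Flg, S100 fused-type proteins of the upper layers, were at 13.8 and 8.36 FPKM in +N and at 1.09 and 1.28 in +NF, and Cnfn, cornifelin, was at 338 and 98.8. The transglutaminase that cross-links the shell differed less, with Tgm1 at 164 and 119 FPKM. Lor, loricrin, the main protein of the epidermal envelope, was at 12.7 and 13.4 FPKM, so it stood apart from the other envelope genes.

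The small proline-rich proteins are cross-bridges of the envelope, and 13 of 14 compared Sprr genes were at least 2-fold lower (median -2.15). Sprr1a was at 1464 FPKM in +N and 415 in +NF, Sprr2d at 1421 and 292, and Sprr1b at 244 and 20.2. The only one not called was Sprr2a2, at 1.04 and 0.0410 FPKM. Summed over the family the level was 4063 FPKM in +N and 931 in +NF. The late cornified envelope genes were lower in 12 of 13 compared (median -2.25), from a much lower level, with sums of 174 and 11.8 FPKM. Lce3e was at 27.2 and 0.618 FPKM and Lce3a at 52.5 and 3.78. Only Lce1h was not called, at 1.07 and 0.944 FPKM. Members of both families are close copies, so the counting could move reads between them, and the strand setting of the counting is not given in the sources used here.

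These families lie side by side. In the window of chromosome 3 from 92000001 to 93000000, within the epidermal differentiation complex, 29 of 36 compared genes were at least 2-fold lower and none higher, while 2.44% of all genes were lower. Adjacent genes did not all follow, since Lor, Ivl, Sprr2a2 and Lce1h lie in the same window and were not called. The window from 90000001 to 91000000 held 5 lower genes of 28, among them the S100 genes S100a8, S100a9, S100a7a and S100a4. S100a8 and S100a9, the subunits of calprotectin, were at 4.96 and 333 FPKM in +N and at 1.31 and 129 in +NF. Over the S100 list 4 of 12 compared were lower, all 4 in that window, and S100a6, at 6272 and 5678 FPKM, was not.

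**Figure D4:**
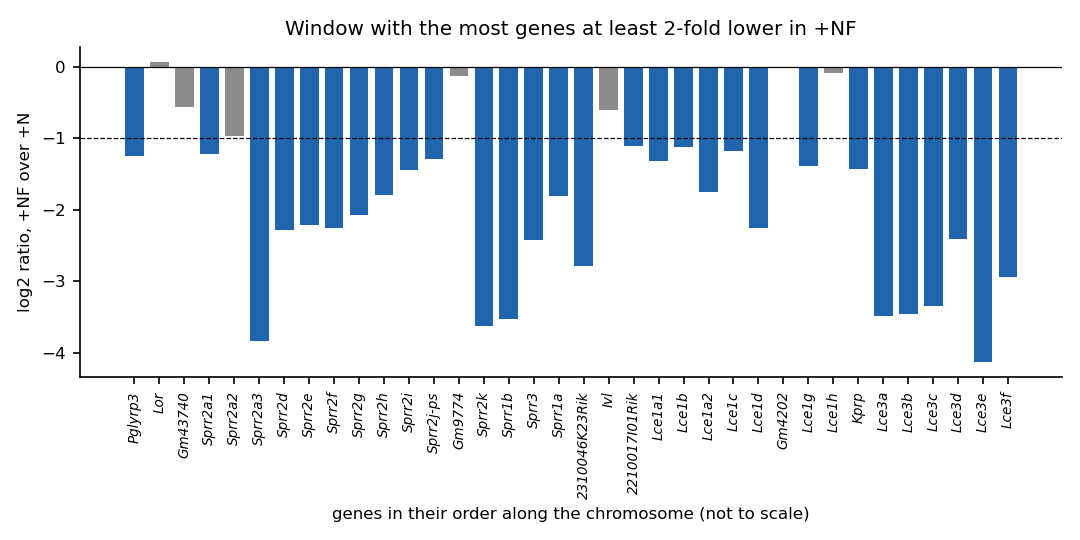
Log2 ratio of +NF over +N for the genes compared in the window of chromosome 3 from 92000001 to 93000000, in their order along the chromosome. Blue bars are the 29 of 36 genes at least 2-fold lower, grey bars the others, and the dashed line marks 2-fold.

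The upstream regions of 2 Sprr genes and of Krt13 are shown because TGANTCA, the AP-1 site consensus, recurs in front of the genes that were lower. Each is the 250 bases before a RefSeq start on GRCm38.p6 with matches in capitals. Where a gene has several starts, the one with the most matches is shown. The Krt13 start shown lies inside the gene as annotated, on chromosome 11 from 100117327 to 100121566. For Sprr1a, chr3:92485882-92486131 on the minus strand, matches begin 146 and 116 bases before the start. For Sprr2k, chr3:92432332-92432581 on the plus strand, they begin at 196 and 182, and for Krt13, chr11:100120578-100120827 on the minus strand, at 183 and 34:
Sprr1a: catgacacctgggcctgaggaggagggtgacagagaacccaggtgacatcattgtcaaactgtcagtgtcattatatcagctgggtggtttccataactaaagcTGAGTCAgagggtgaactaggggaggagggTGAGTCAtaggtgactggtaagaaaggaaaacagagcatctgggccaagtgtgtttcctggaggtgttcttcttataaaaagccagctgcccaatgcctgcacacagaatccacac
Sprr2k: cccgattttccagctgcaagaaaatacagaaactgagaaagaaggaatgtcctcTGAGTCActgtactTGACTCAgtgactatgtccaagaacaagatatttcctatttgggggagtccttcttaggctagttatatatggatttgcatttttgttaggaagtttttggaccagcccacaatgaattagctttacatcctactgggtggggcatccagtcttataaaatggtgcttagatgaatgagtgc
Krt13: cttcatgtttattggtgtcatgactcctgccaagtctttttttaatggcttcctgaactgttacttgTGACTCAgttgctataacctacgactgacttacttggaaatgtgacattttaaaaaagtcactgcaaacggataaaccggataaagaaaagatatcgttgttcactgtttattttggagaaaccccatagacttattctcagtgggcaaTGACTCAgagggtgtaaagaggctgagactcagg
The pattern reads the same on both strands. In the 300-base windows it was present in 9 of 14 Sprr promoters (64.3%) and in none of 20 Lce promoters. Of 20 promoters of 16 spinous genes 8 held it (40.0%), and these 8 belong to 5 genes. The shares were 7.81% of all promoters and 5.55% of those of compared genes. Promoters of genes called lower held it in 18.5% of cases (40 of 216) and promoters of genes called higher in 3.0% (9 of 300). Within the Sprr family the pattern did not sort the genes by their ratio: Sprr2a3, without a match, had a log2 ratio of -3.84, and Sprr1a, with 2 matches, of -1.82. Neighbouring Sprr genes arose by duplication, so their promoters are not separate observations.

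The proteases that shed cornified cells were lower too. Kallikreins cleave desmosomal proteins at the surface, and in the window of chromosome 7 from 43000001 to 44000000 the genes Klk7 to Klk14 contributed 8 of the 9 lower genes among 15 compared, with Vsig10l as the other. Klk14 was at 57.8 FPKM in +N and 2.65 in +NF, Klk10 at 30.2 and 3.32, and Klk8 at 37.4 and 14.8. Over kallikreins, serpins and protease inhibitors 12 of 25 compared were lower and none higher. Asprv1, a protease that processes filaggrin, was at 19.5 and 1.07 FPKM and the intracellular inhibitor Serpinb3a at 15.8 and 0.607. Spink5, the inhibitor that restrains kallikreins, was at 239 and 125 FPKM and not called. A smaller group on chromosome 17 between 35000001 and 36000000 had 5 lower genes of 53, against 2.44% of all genes, with Cdsn, corneodesmosin, at 9.14 and 2.20 FPKM.

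Skin lipid barrier genes were lower in 5 of 19 (26.3%, against 2.44% of all genes). Alox12b, a lipoxygenase that oxidises ceramides, was at 3.33 FPKM in +N and 0.281 in +NF, Elovl4, an elongase of very long fatty acids, at 5.82 and 1.53, and Cers3, a ceramide synthase, at 31.7 and 25.9 and was not called. Of 6 stefins and cystatins 3 were lower. Among 25 transcription factors of stratification 3 were lower (12%, against 2.44% of all genes): Hopx, a homeodomain-only protein, was at 66.5 and 19.3 FPKM, Ehf, an epithelial ETS factor, at 134 and 60.8, and Grhl1, which acts on desmosomal genes, at 23.6 and 10.8. Klf4 was at 27.6 and 14.0 FPKM and was not called. Connexins of upper layers were among the lower genes, Gjb2 at 46.0 and 5.10 FPKM and Gjb6 at 4.53 and 0.145, with Gjc1 higher at 0.377 and 2.34, out of 7 compared.

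Of 16 tight junction genes Cldn10 stood out. It was at 0.157 FPKM in +N and 11.6 in +NF, a 74.0-fold ratio with a wide interval from 39.2 to 164 that reflects the few fragments in +N. Cldn23 and Tjp3 were called lower, at 5.98 and 8.37 FPKM in +N and at 2.19 and 3.56 in +NF, while Cldn4 was at 326 and 176.

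Vitamin A handling differed in both directions. Retinoic acid is made from retinol by dehydrogenases, carried by binding proteins and cleared by CYP26 enzymes. This list was drawn up after the values were seen, so its counts describe and do not test it: of 21 compared genes 4 were at least 2-fold higher and 6 lower. The clearing enzyme Cyp26a1 was at 0.267 FPKM in +N and 11.2 in +NF, a 41.9-fold ratio (24.4 to 79.5). Its relative Cyp26c1 was listed at 0 in +N and at 5.60 in +NF, which is at least 89.0-fold higher than a floor of 3 fragments in +N. The third member, Cyp26b1, was at 13.7 and 6.42 FPKM and was not called. Rbp4, the serum carrier of retinol, was at 1.90 and 36.7 FPKM, and Crabp1, a cytosolic binder of retinoic acid, was at 32.0 and 201.

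The genes of uptake and synthesis lay on the other side. Stra6, the retinol uptake receptor, was at 223 FPKM in +N and 65.8 in +NF. The retinaldehyde dehydrogenases Aldh1a1 and Aldh1a3 were at 24.3 and 149 FPKM in +N and at 5.80 and 63.0 in +NF, and the alcohol dehydrogenase Adh7 was at 9.94 and 0.842. Crabp2 and Fabp5, the binding proteins that deliver retinoic acid to nuclear receptors, were at 21.7 and 2155 FPKM in +N and at 5.25 and 547 in +NF. The receptors did not reach 2-fold, with Rara at 6.85 and 8.57 FPKM, Rarg at 55.6 and 49.3 and Rarb, itself a target of retinoic acid, at 12.99 and 7.29. In the pair with dibenzazepine Cyp26a1 was at 0.145 and 10.2 FPKM and Cyp26c1 at 0 and 5.85, so both enzymes were at or near 0 in both media without FGF10. Most of the other differences were not seen there: Crabp1 was at 186 and 284 FPKM, Stra6 at 53.03 and 48.8, Aldh1a3 at 55.3 and 36.5 and Aldh1a1 at 1.15 and 0.845, none of them past 2-fold. Crabp2 was at 34.3 and 21.01 FPKM and was not called either, whereas Rbp4 at 12.8 and 26.7, Fabp5 at 2942 and 675 and Adh7 at 11.1 and 3.42 were called in the same direction as without dibenzazepine. The Rbp4 call there was narrow, with a log2 ratio of 1.01. The list median was -0.76 without dibenzazepine and 0.20 with it.

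The Cyp26a1 upstream region is shown because it is known for a retinoic acid response element, here read as 2 copies of AGNTCA with 5 bases between them, on either strand. The 250 bases before the RefSeq start, chr19:37697558-37697807 on the plus strand of GRCm38.p6, hold a match 32 bases before the start, in capitals:
Cyp26a1: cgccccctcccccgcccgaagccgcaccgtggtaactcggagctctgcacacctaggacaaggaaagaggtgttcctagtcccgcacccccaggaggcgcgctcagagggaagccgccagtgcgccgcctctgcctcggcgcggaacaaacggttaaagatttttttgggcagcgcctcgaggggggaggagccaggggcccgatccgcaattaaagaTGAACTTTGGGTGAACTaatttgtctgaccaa
That arrangement is rare, in 67 of all 32851 promoters (0.204%), in 9 of 12078 of compared genes (0.0745%), in 2 of 300 promoters of genes called higher and in none of 216 of genes called lower.

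Desaturation and elongation of polyunsaturated fatty acids, again a list made after the values were seen, had 4 of 9 compared genes higher and none lower. The 3 desaturases of the Fads cluster were Fads1 at 8.07 FPKM in +N and 44.9 in +NF, Fads2 at 20.3 and 71.0, and Fads3 at 9.33 and 28.6. Mboat2, which loads fatty acids into phospholipids, was at 0.704 and 5.21 FPKM. Fabp4, a carrier of fatty acids best known from adipocytes and macrophages, was the protein-coding gene of at least 5 FPKM with the lowest ratio. It was at 149 FPKM in +N and 2.38 in +NF, 62.5-fold lower (55.5 to 70.4), on chromosome 3 from 10204088 to 10208576. The 17 macrophage markers compared did not come near that ratio, with a median of -0.35. Their part in the Fabp4 difference was not tested.

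Detoxification genes, the third list made after the values were seen, were lower in 7 of 38 (18.4%, against 2.44% of all genes) and higher in 1. Aldh3a1, an aldehyde dehydrogenase of cornea and mucosa, was at 30.8 FPKM in +N and 3.32 in +NF, and the glutathione transferases Gsta1 and Gsto1 were at 46.3 and 4345 FPKM in +N and at 6.18 and 1971 in +NF. Gpx2, a glutathione peroxidase of epithelia, was at 191 and 56.6 FPKM. Gclm, the regulatory subunit of the enzyme that makes glutathione, was the higher one, at 181 and 419 FPKM, while Nfe2l2, the factor that induces many of these genes, was at 152 and 124.

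Among tooth signalling genes 5 of 37 were at least 2-fold higher (13.5%, against 2.76% of all genes) and 1 lower. A hedgehog readout was among them: Gli1, a transcription factor induced by hedgehog signalling, was at 0.188 FPKM in +N and 4.61 in +NF (24.5-fold, 15.7 to 39.6). Ptch1, a hedgehog receptor and target, was at 4.78 and 7.04 FPKM and was not called. The ligand Shh was at 0.0160 and 0.679 FPKM, below the level at which genes were compared. Lgr5, the R-spondin receptor of many epithelial stem cells, was at 0.0307 and 2.07 FPKM, and with about 4 fragments in +N its 67.5-fold ratio has an interval from 26.2 to 250.5. The general Wnt target Axin2 was at 12.1 and 11.6 FPKM, in media that both hold Wnt3a and R-spondin1. Sostdc1, an antagonist of Wnt and BMP in the tooth, was at 8.33 and 43.0 FPKM and Bmp4 at 5.04 and 13.3. The lower gene was Tgfb2, at 3.57 and 1.19 FPKM. Sostdc1 was also at 42.1 FPKM in +ND and 62.7 in +NFD, so +N was its low library. In the pair with dibenzazepine 7 of 39 compared members of the list were called higher and 0 lower.

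The transcription factors of dental epithelium mostly held their level. Runx1 was at 84.1 FPKM in +N and 88.8 in +NF. Of 29 compared, 2 were called higher: Foxi3, a factor of ectodermal placodes and incisor epithelium, at 0.545 and 5.85 FPKM and Dlx6 at 0.0944 and 1.23, the second call lost on the centred scale (0.91). Sox2, the stem cell factor of the labial cervical loop, was at 14.2 FPKM in +N and 8.21 in +NF, and Isl1 and Tbx1 were at 17.5 and 11.99 FPKM in +N and at 34.8 and 24.1 in +NF, none of the 3 past 2-fold. Of 17 ameloblast genes only Amtn, amelotin, was called, lower at 7.01 and 1.24 FPKM.

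Matrix and adhesion genes were mixed. Of 36 matricellular genes 5 were higher, led by the proteoglycan Vcan at 0.6 FPKM in +N and 5.39 in +NF and the inhibitor Timp3 at 14.7 and 44.7, and 2 were lower, among them Tgfbi at 34.9 and 7.57. Of 20 collagens Col18a1, a basement membrane collagen, was at 67.9 and 188 FPKM and Col8a1 at 27.0 and 65.3, both higher, while Col3a1 at 20.8 and 6.81 and Col5a3 at 3.39 and 0.674 were lower. Of 18 matrix proteases only Mmp9 was called, at 176 and 395 FPKM. Among 29 integrin and migration genes, Pdpn, a mucin-type glycoprotein of motile epithelium, was at 13.9 and 67.8 FPKM, Mcam, an adhesion molecule, at 8.40 and 36.8 and Itga1 at 0.485 and 4.38. The contractile genes Acta2, Tagln and Myl9 were the 3 lower ones of that list, with Acta2 at 17.5 and 5.52 FPKM.

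Innate defence genes lay mainly below 0. None of 31 interferon response genes passed 2-fold (median -0.14), and of 19 genes of antigen presentation only Cd74 did, at 5.61 FPKM in +N and 1.31 in +NF. Of 28 cytokines 4 were lower, all of the interleukin-1 family: Il1f8 at 19.5 and 3.88 FPKM, Il1f9 at 117 and 32.8, Il33 at 94.3 and 41.4 and Il1f6 at 2.27 and 0.534. The neutrophil chemokine Cxcl5 was at 1955 and 1390 FPKM and was not called. Secretory genes split, with Wfdc18 at 103 and 12.99 FPKM and Scgb1a1, the club cell secretoglobin, at 181 and 51.8, both lower among 14 compared, and Bpifb4, of the bactericidal/permeability-increasing fold family, much higher. Beside these counts, 16 of 17 macrophage markers lay below 0 without any at 2-fold, with summed FPKM of 873 in +N and 634 in +NF, and Lyz2 at 528 and 373. The part of macrophages in the defence genes was not tested.

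The largest ratios upward among protein-coding genes of at least 5 FPKM came from several lists. Bpifb4, at 4.71 FPKM in +N and 122 in +NF, had a 25.8-fold ratio (23.1 to 29.0) and lies between 153938212 and 153964101 of chromosome 2. Of the next genes in order, beside those already given, 1500009L16Rik was at 4.45 and 56.9 FPKM. It was followed by Cxcr4, the receptor of the chemokine CXCL12, at 0.284 and 9.86 FPKM, Calca, which encodes calcitonin and CGRP, at 78.9 and 636, and Penk, proenkephalin, at 1.01 and 13.1. Tnfrsf19, a TNF receptor family member of hair and tooth epithelium, was at 2.45 and 22.8 FPKM and Il18r1 at 2.53 and 22.9. Csn3, κ-casein, a relative of Odam in the cluster of secreted phosphoproteins on chromosome 5, was at 38.2 and 261 FPKM. Ly6c1 was at 116 FPKM in +N and 787 in +NF, but at 798 in +ND and 781 in +NFD, so that +N was its low library as it was for the cell cycle genes.

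Some genes reached an FPKM of 1 in 1 library and had at most 3 fragments in the other. At FPKM of at least 1 in +NF and at most 3 fragments in +N there were 8 protein-coding genes, among them Cyp26c1, Sp5, a Wnt-induced zinc finger factor, at 0.0240 and 2.23 FPKM, Serpina3n, a secreted protease inhibitor at 0 and 1.83 (at least 34.3-fold higher), and Nell2, a secreted glycoprotein at 0 and 1.10 (at least 32.3-fold higher). In the reverse direction there were 14. Mt4, the metallothionein of stratified squamous epithelia, was at 6.00 FPKM in +N and listed at 0 in +NF (at least 22.7-fold lower), Lce1d was at 3.77 and 0 (at least 24.3-fold lower), and Idi2, an isopentenyl isomerase, was at 5.86 and 0.0129. Of the 14, 4 were Lce1 genes, namely Lce1d, Lce1a1, Lce1c and Lce1g. Idi2 was also near 0 with dibenzazepine, at 0.0859 FPKM in +ND and 0 in +NFD.

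Macrophage and fibroblast markers were present in both libraries, with C1qa at 52.0 FPKM in +N and 34.9 in +NF and Col1a1 at 74.3 and 50.3, while the markers of the other cell types listed were mostly under 1 FPKM. Fibroblast markers were lower in 2 of 11 compared, Col3a1 and the proteoglycan Lum at 7.85 FPKM in +N and 3.15 in +NF, and their summed FPKM was 299 and 233. Of 10 endothelial markers 1 was compared, Egfl7 at 8.03 and 15.7 FPKM, with the defining marker Pecam1 at 0.134 and 0.125. Of the neural markers only Mbp was compared, at 5.29 and 3.14 FPKM. No muscle, lymphocyte or neutrophil marker reached an FPKM of 1.

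The second pair with and without FGF10, +NFD and +ND, shares no library with the first and puts FGF10 against its absence under dibenzazepine. There 450 of 13293 genes (3.39%) passed 2-fold upward and 414 (3.11%) downward. Of the 361 genes higher in +NF, 109 were also higher in +NFD, which is 30.2% of the first list and 24.2% of the second, and 9 were called in the opposite direction. Of the 319 lower genes, 117 were lower in both, 36.7% of the first list and 28.3% of the second, with 10 opposite. Not all could be called in the second pair, where 327 of the 361 and 264 of the 319 were compared. Among these, 265 of the 327 lay above 0 there and 216 of the 264 at or below 0. The difference between the pairs has no test, since each medium has 1 library.

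ERK feedback genes, spinous genes and cornified envelope genes had like medians in both pairs, 0.58 and 0.49, -1.07 and -1.03, and -1.11 and -1.01. The calls matched less well in the ERK list, with 6 higher and 0 lower in the first pair and 3 higher and 1 lower in the second. Spry1 was called higher in both, whereas Etv4, Etv5 and Spred3 were not called in the second and Hmga2 was lower there. Spinous genes had 12 lower in each pair and cornified envelope genes 11. Dusp6 had 88.4 FPKM in +ND and 176 in +NFD, and Fgfr1 35.6 and 75.6, so both also stood higher with FGF10, from a higher level without it. The Sprr and Lce medians were -1.69 and -1.26 under dibenzazepine. The Lce genes started from a different place there: their summed FPKM was 6925 in +ND and 3114 in +NFD against 174 in +N and 11.8 in +NF. Krt10 went from 32.8 FPKM in +ND to 2.93 in +NFD and Krt4 from 9.98 to 8.68, whereas without dibenzazepine Krt4 had gone from 69.0 to 3.79. Krt8 was at 0.574 and 5.95 FPKM, higher with FGF10 in both pairs.

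Cell cycle, collagen and fibroblast lists differed between the pairs. The median over collagen genes was -0.29 in +NF against +N and 0.78 in +NFD against +ND, and over fibroblast markers -0.39 and 1.01. Summed fibroblast markers were 284 FPKM in +ND and 682 in +NFD. The part of fibroblast content in the collagen values was not tested.

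**Figure D5:**
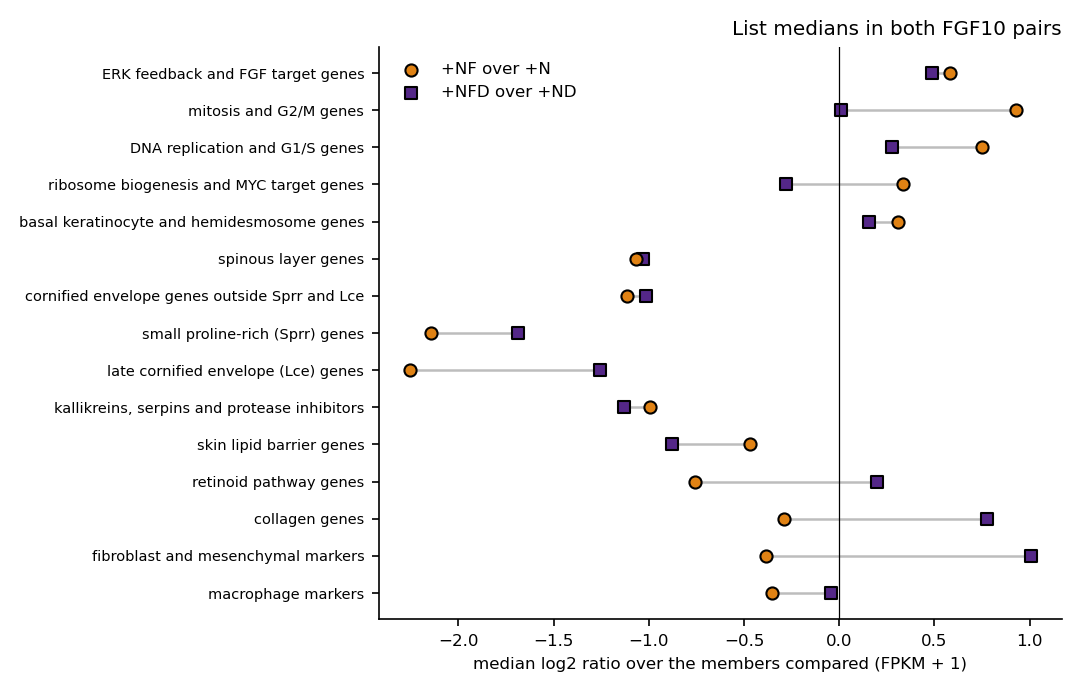
Median log2 ratio of each list for +NF over +N (circles) and for +NFD over +ND (squares), with a grey line between them. Spinous and cornified envelope medians nearly coincide, while the mitosis, collagen and fibroblast medians lie apart, at 0.93 and 0.01, -0.29 and 0.78, and -0.39 and 1.01.

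Genes that the study itself names for its FGF10 media were chosen on libraries of this series, in part in comparisons with Jagged1 media that are not analysed here, so the comparison below is not the one they were all named for and is no independent evidence of a direction. Of 40 compared, 5 were higher and 13 lower in +NF. The lower ones include Krt10 and Sprr1b, which the study reports as decreased with FGF10. They also include Col3a1, Acta2, Lum and Krt20, which it reports as increased with FGF10 against a Jagged1 medium. Mcam, reported as increased in that way too, was among the higher ones here. Those not yet described include Alox15, a lipoxygenase, lower at 19.7 and 6.06 FPKM, Rapgef3, an exchange factor activated by cyclic AMP, higher at 6.51 and 18.7, and Lox, a cross-linker of collagen, at 16.1 and 7.62 and not called. Vim, the mesenchymal intermediate filament, was at 16.3 and 11.3 FPKM and Cdh1, E-cadherin, at 163 and 120. For +NF against +N itself, the study reports cell division and matrix organization terms for the higher genes. It also reports negative enrichment of a skin development term. Its calls rest on p-values and not on a fold limit. Here 5 of 36 matricellular genes were higher and 2 lower, and of 20 collagens 2 were higher and 2 lower.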

How the data were processed

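Total RNA of organoids was made into TruSeq libraries and sequenced on an Illumina HiSeq instrument. Per the labels and the study's methods, the authors checked reads with FastQC (0.11.9), trimmed them with Trim Galore (0.6.5), mapped the result with TopHat2 (2.1.1) against GRCm38 and estimated abundance with Cufflinks. The deposited values are FPKM per gene, 1 column per library. The annotation release, Cufflinks options and strand setting are not given in the sources used here. FPKM carries no read counts, so depth was read from the smallest steps of FPKM times transcript length in 8409 single-transcript genes of at least 1000 nt (GENCODE M21 lengths), and the floors of 3 fragments and the 95% intervals (Clopper-Pearson) rest on it and cover counting error only. Multi-isoform genes make these intervals approximate.

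The 47493 entries were summed over 47360 symbols, a pseudocount of 1 was added, and genes reaching an FPKM of 1 in either library were compared in Python 3.11.15 with pandas 2.3.3, numpy 2.4.6 and scipy 1.17.1; plots used matplotlib 3.10.9. With 1 library per medium no test was run. The calling script was tested on simulated data. Libraries with Jagged1 were not analysed here. A few listed genes are not reported here. Promoter windows came from RefSeq (GRCm38.p6), of which 9463 compared genes had one. For a gene with several starts, the upstream region shown is that with the most matches of its pattern.

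Groups come from the labels. Named genes were the 12 largest ratios in each direction among protein-coding genes of at least 300 nt and 5 FPKM, the 4 largest per list, all genes of the FGF, ERK feedback and study-named lists, the 10 most abundant, the markers of cell types and the members of 1 Mb windows with at least 5 called genes; other genes are named as list members or for contrast, chosen after their values were seen. The genes, the 48 lists and the rules were chosen with earlier results of these data known, and 3 further lists after the values were seen. Alternatives were the pseudocount, the filter, the scaling, the handling of repeated symbols and the gene class.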

Additional observations from a re-analysis of the deposited data

Results flagged for a closer look

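In 3 of the named genes the difference with FGF10 ran in opposite directions in the 2 pairs of media, each past 2-fold. Over all genes, 9 called higher and 10 called lower in +NF had the opposite call in +NFD against +ND. These differences were not tested because each medium has 1 library. Hmga2 had a log2 ratio of 1.77 in +NF against +N and of -1.25 in +NFD against +ND, with +ND the highest library at 43.9 FPKM. Col3a1, a fibrillar collagen of mesenchyme, had -1.48 and 2.12, from 20.8 to 6.81 FPKM in the first pair and from 12.3 to 56.7 in the second. Lum, a proteoglycan of the same tissue, had -1.09 and 1.5, from 7.85 to 3.15 FPKM and from 9.45 to 28.6. Col3a1 and Lum are both on the list of fibroblast markers, whose summed FPKM was 233 in +NF and 682 in +NFD, and the part of fibroblast content was not tested.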

How the results depend on the processing

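Each value was recomputed with a pseudocount of 0.1 or none, with no filter or a filter at 5 FPKM, with upper-quartile scaling or centring on the median, with the highest entry per symbol and over protein-coding genes of at least 300 nt alone. The count of higher genes, 361, became 712 with a pseudocount of 0.1 and 720 without one, and the count of lower genes, 319, became 480 with 0.1. The median of all genes, 0.12, became 0.016 under upper-quartile scaling and 0 by construction when centred. Mitosis genes called higher (24) were 40 with a pseudocount of 0.1, 43 without one, 9 under upper-quartile scaling and 9 when centred, and DNA replication genes (6) were 11, 11, 2 and 1. Lce genes called lower (12) were 6 with the filter at 5 FPKM, which leaves fewer to compare. No named gene called in either direction changed sign, while small ratios that were not called can change sign under upper-quartile scaling or centring: of the comparisons of named genes under these settings, 2743 stayed on their side of 2-fold, 55 newly passed it and 14 no longer did, the last all under upper-quartile scaling or centring. No paired analysis was possible because the media share only replicate number 1, and no replicate could be left out with 1 library per medium. FPKM rather than counts limits what can be said of short transcripts, and close copies in the Sprr, Lce and keratin families share reads.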
